A study of Mus musculus with 30 samples.

Results

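Normal trachea was compared with normal lung, across all genes, in mouse embryos at stage E18.5, shortly before birth. The comparison used the control libraries of a study of Myocd, the gene of myocardin, which works with SRF to switch on smooth muscle genes. Its members were fixed by the labels alone: 4 control tracheas and 4 control lungs (right lobes), or 8 of the 30 libraries of the series, each made from polyadenylated RNA of a single trachea or lung. All 8 carried the same genotype, Tbx4rtTAi/+; tetOcrei/+; MyocdF/+, that is, a reverse tetracycline transactivator (rtTA) named for Tbx4, a gene of respiratory mesenchyme, a Cre gene under the tetracycline operator and 1 floxed Myocd allele. These controls are therefore not wild type, since they carry the driver and 1 floxed allele as the mutants do. The labels used here give no doxycycline treatment.

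The trachea and the lung arise from the same foregut endoderm and the mesoderm around it. The trachea becomes a tube with a pseudostratified epithelium of basal, secretory and ciliated cells, held open by cartilage at the front and closed by a smooth muscle band at the back. The lung branches and ends in saccules whose epithelium makes type 1 cells, thin enough for gas exchange, and type 2 cells, which secrete surfactant, next to a dense bed of capillaries. In bulk tissue fewer cells of a type and less RNA per cell cannot be told apart, so every level below is that of a whole tissue.

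The genes that define each tissue went with the labels. Col2a1, the main collagen of cartilage, was counted at 6501, 9256, 10170 and 10420 CPM (counts scaled to library size) in the 4 tracheas, in replicate order, and at 0.766, 3.76, 1.18 and 1.44 CPM in the 4 lungs. Sftpc, surfactant protein C, was counted at 19.3, 27.6, 13.9 and 15.2 CPM in tracheas and at 9560, 8545, 9505 and 10150 CPM in lungs. All 5 trachea genes and all 5 lung genes set for this check were separated without overlap in the labelled direction. Some libraries stood apart within the tracheas. Trachea 2 was the shallowest, at 11.7 M counts against 22.5 to 30.5 M in the other tracheas and 24.8 to 32.8 M in lungs, had reads on 16530 genes against 22138 to 25623 in the other 7 libraries, and lay apart on the second principal component, which held 7.89% of the variance where the first, between the tissues, held 85.5%. Summed over 17 cardiac muscle genes it had 3183 CPM, where tracheas 1, 3 and 4 had 483, 476 and 445 CPM. Trachea 1 had the highest sums over 20 skeletal muscle genes (4016 CPM) and 12 thyroid genes (634 CPM), and genes of the ribosomal RNA repeats, looked at after the data were seen, took 3.62% of its counts against 1.14% to 1.35% in tracheas 2 to 4 and 0.101% to 0.146% in lungs. Where leaving out these libraries changed the call of a gene named below, that is stated beside it.

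Over all genes, 17553 passed a filter on low counts and were tested with edgeR's quasi-likelihood test, on TMM-scaled libraries with Benjamini-Hochberg adjustment over all of them and a threshold of 0.05. Of these, 4337 (24.7%) were higher in trachea and 4869 (27.7%) were higher in lung, and the median log2 fold change, trachea minus lung, was -0.05. Tracheal genes were thus 47.1% of the calls, and 57.1% with upper quartile scaling, which moved the median of all genes to 0.09 (5178 and 3890 calls). Among the called genes, the estimated difference was above 2-fold for 2682 higher in trachea and 2050 higher in lung. It was above 8-fold for 784 and 512. The levels of 4141 genes were above every lung library in every trachea, and those of 5104 were above every trachea in every lung. The 24.7% and 27.7% are the background for each count of list members below, and the lists are given by counts and medians with no test of their own. Lung and trachea libraries were deposited in separate tables, so a difference in handling between the sets and a difference between the tissues cannot be told apart.

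**Figure D1:**
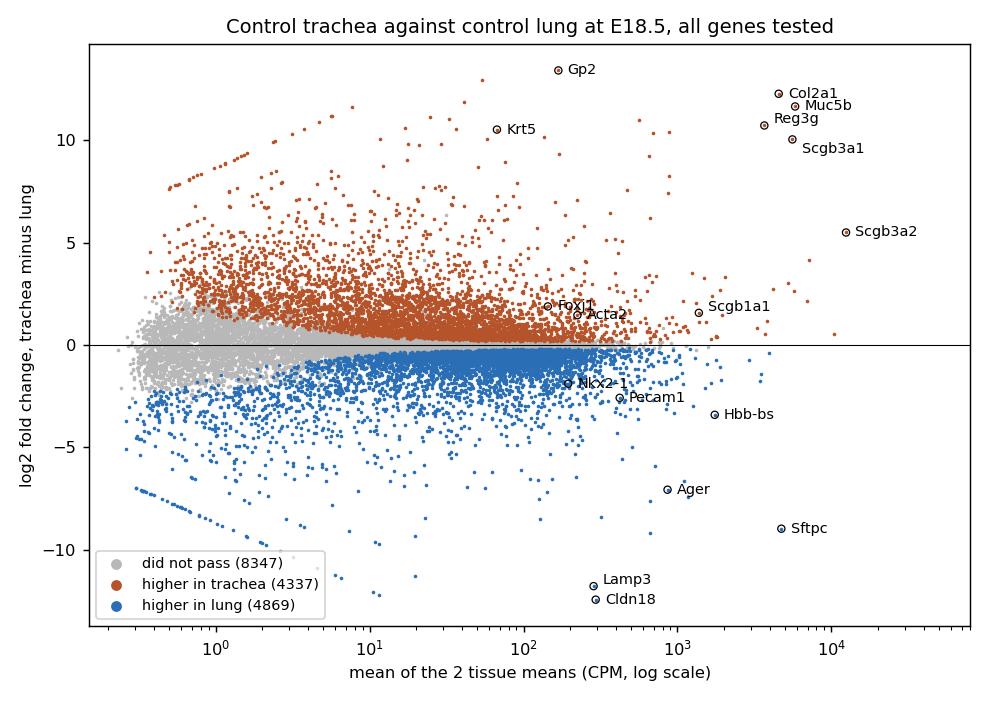
Each point is 1 of the 17553 genes tested, placed by the mean of its trachea and lung means (CPM, log scale) and its log2 fold change, trachea minus lung; 4337 genes in brown were higher in trachea, 4869 in blue were higher in lung, and grey genes did not pass. The straight rows of points at the upper and lower left are genes with no count in 1 tissue, whose fitted fold is no estimate.

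Genes of alveolar type 2 cells and of surfactant were higher in lung without exception: all 19 listed genes were tested, 19 were higher in lung and 0 in trachea, with a median log2 fold change of -2.67. Sftpc (chromosome 14, 70520949 to 70524081, GRCm38) was at 19 ± 6.2 against 9440 ± 664 CPM (SD, n = 4 in each tissue, as throughout), 502-fold higher in lung (log2 fold change -8.97, SE 0.244, adjusted p 4.64e-10). Lamp3 (chromosome 16, 19653381 to 19706365), a membrane protein of lamellar bodies, was at 0.246, 0.0839, 0.223 and 0.0662 CPM in tracheas and 543, 530, 592 and 615 CPM in lungs, and the ranges were separated by more than 3 orders of magnitude. The surfactant protein genes did not differ by like amounts. Sftpa1 (chromosome 14, 41131782 to 41136452) was at 2.15 ± 2.15 against 1324 ± 56.3 CPM (log2 fold change -9.16), while Sftpb, needed to spread surfactant, was at 571 ± 14.2 against 2460 ± 221 CPM (-2.11) and Sftpd, a collectin of the airway lining, at 112 ± 28 against 224 ± 20.7 CPM (-1.01). Both genes were well above the floor in the trachea, where Sftpb lay between 550 and 581 CPM in all 4 libraries. Slc34a2, a phosphate transporter of type 2 cells, differed 102-fold and Abca3, the lipid pump of lamellar bodies, 6.36-fold, both higher in lung.

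Enzymes of surfactant lipid synthesis were higher in lung by smaller amounts. Of 18 listed and tested, 17 were higher in lung and 0 in trachea (median -1.07). Scd1, a fatty acid desaturase, was at 17.9 ± 2.88 against 859 ± 180.4 CPM, and Fasn, fatty acid synthase, at 249 ± 43.5 against 1084 ± 173 CPM, a 4.35-fold difference.

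Type 1 genes were higher in lung with 1 exception. All 16 were tested, 15 were higher in lung and 1 in trachea, with a median of -3.19. Cldn18 (chromosome 9, 99689461 to 99717267), a tight junction claudin with a lung form in alveolar epithelium, was at 0.123, 0.0839, 0.0893 and 0.0992 CPM in tracheas and 535, 581, 627 and 612 CPM in lungs (log2 fold change -12.44, SE 0.137, adjusted p 1.30e-12). Ager, the receptor for advanced glycation end products and a surface protein of type 1 cells, was at 13 ± 5.39 against 1711 ± 76.3 CPM. Akap5, a scaffold for protein kinase A, was at 1.86 ± 0.107 against 635 ± 115 CPM, Clic5 at 30.7 ± 4.75 against 978 ± 94.1 CPM and Hopx, an atypical homeodomain protein of type 1 cells, at 15.6 ± 3.51 against 244 ± 15.7 CPM. Igfbp2, an insulin-like growth factor binding protein, was that exception, at 152 ± 10.8 against 11.5 ± 0.706 CPM.

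Promoter sequences were available in RefSeq (GRCm38.p6) for only some of these genes. Those of 3 genes described above, each far higher in lung, are shown, cut at the annotated start of the gene and written 5′ to 3′ on the gene's strand. Capitals mark 3 sets of letters searched on both strands: CAAGTG, the core bound by NKX2 factors, TGTTTAC, bound by FOXA factors, and TATAAA, the TATA box. They lie at chr9:99717268-99717517, minus strand, chr14:41131538-41131781, plus strand, and chr16:19706366-19706615, minus strand.
Cldn18: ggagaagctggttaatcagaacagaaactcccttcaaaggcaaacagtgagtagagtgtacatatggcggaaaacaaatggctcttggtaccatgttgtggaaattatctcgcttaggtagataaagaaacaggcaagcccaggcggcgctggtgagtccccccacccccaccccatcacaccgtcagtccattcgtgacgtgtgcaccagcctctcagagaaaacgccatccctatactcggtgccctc
Sftpa1: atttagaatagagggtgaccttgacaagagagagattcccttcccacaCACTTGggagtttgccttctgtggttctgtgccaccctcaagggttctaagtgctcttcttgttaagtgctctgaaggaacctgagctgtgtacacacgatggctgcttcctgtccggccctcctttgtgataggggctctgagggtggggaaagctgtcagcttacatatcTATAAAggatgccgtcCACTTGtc
Lamp3: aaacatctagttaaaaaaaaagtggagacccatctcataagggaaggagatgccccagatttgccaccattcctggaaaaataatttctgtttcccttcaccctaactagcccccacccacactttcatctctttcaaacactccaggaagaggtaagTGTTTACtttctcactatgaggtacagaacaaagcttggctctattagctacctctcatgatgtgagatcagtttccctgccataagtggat
In these windows Sftpa1 had 2 CAAGTG matches and a TATAAA match, Lamp3 had 1 TGTTTAC match and Cldn18 had none of the 3. Over the 250 bases before the start, 4 of 14 type 2 genes with a promoter in the table held TGTTTAC (28.6%: Etv5, Il33, Lamp3 and S100g), as did 3.06% of all 27025 promoters, and 2 of 14 held CAAGTG (14.3%, against 11.6% of all). Of type 1 genes, 1 of 14 held TGTTTAC and 1 of 14 held CAAGTG (7.14% each). A match describes the letters only, and no match says nothing of a factor. The motifs were picked after matches of other motifs had been seen.

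The airway epithelium of the trachea had the opposite profile, though not for every cell type to the same degree. Genes of mucous cells and airway defence had the larger differences: of 15 listed, all tested, 14 were higher in trachea and 0 in lung, with a median of 6.45. Muc5b (chromosome 7, 141839070 to 141873084), a gel-forming mucin, was at 12970, 10120, 13500 and 9871 CPM in tracheas and 4.87, 4.24, 2.05 and 3.16 CPM in lungs (log2 fold change 11.66, SE 0.307, adjusted p 4.05e-10). Reg3g (chromosome 6, 78466269 to 78468872), a secreted antibacterial lectin, was at 7329 ± 1013 against 4.33 ± 0.554 CPM (1693-fold). Agr2, a protein disulfide isomerase needed for mucin folding, was at 1379 ± 141 against 1.03 ± 0.408 CPM, and Spdef, a transcription factor of mucous cells, at 101 ± 25.8 against 1.45 ± 0.299 CPM. Tff2, a trefoil peptide of mucus, was at 73.1 ± 17.5 against 0.0385 ± 0.0564 CPM. Bpifa1, a lipid-binding protein of airway secretions, was at 15.4 ± 10.8 CPM in tracheas and had no count in any lung, which makes it at least 594-fold higher, with 3 counts over the 4 lungs as the floor. Lcn2, an iron-sequestering protein, was the only listed gene that did not pass, at 49.5 ± 14.8 against 46.9 ± 6.18 CPM.

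Club cell genes were high in trachea and clearly present in lung. The list had 10 of 14 higher in trachea, 2 higher in lung and a median of 1.82. The 3 main secretoglobins, small secreted proteins of club cells, differed widely from one another. Scgb3a1 (chromosome 11, 49663610 to 49665118) was at 11150 ± 775 against 10.5 ± 5.74 CPM (log2 fold change 10.05, SE 0.506), Scgb3a2 at 24350 ± 1431 against 538 ± 73.4 CPM (5.50, SE 0.115) and Scgb1a1 at 2062 ± 303 against 692 ± 52 CPM (1.57, SE 0.108). Scaled by exon length, Scgb3a2 reached 27670 RPKM (CPM per kilobase of exon), the highest in trachea outside mitochondrial genes and globins. Scgb3a1 followed among the secretoglobins at 18640 RPKM and Scgb1a1 at 4333 RPKM. In lung the order was another: Sftpc led at 9130 RPKM, Scgb1a1 was at 1454 RPKM, Scgb3a2 at 611 RPKM and Scgb3a1 at 17.5 RPKM. Cyp2f2 and Cbr2, enzymes of club cells, were 6.25-fold and 6.55-fold higher in trachea, while Cyp4b1 and Fmo2, a flavin monooxygenase, were higher in lung (28.3 ± 5.63 against 66.2 ± 6.54 CPM, and 179 ± 13.9 against 847 ± 179 CPM).

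Ciliated cell genes were higher in trachea, by smaller folds than mucous genes. Of 28 listed, all tested, 26 were higher in trachea and 0 in lung (median 2.10, from 0.28 to 3.19). Foxj1 (chromosome 11, 116330704 to 116335399), which drives motile ciliogenesis, was at 215, 216, 233 and 242 CPM in tracheas and 69.5, 59.1, 53.9 and 62.4 CPM in lungs (log2 fold change 1.89, SE 0.09, adjusted p 2.16e-08). Dnah5, an outer dynein arm heavy chain, was at 122 ± 19.1 against 18.4 ± 2.77 CPM, Rsph4a, a radial spoke head protein, at 88 ± 29.3 against 19.9 ± 1.81 CPM and Sntn, a protein of the ciliary tip, at 36.8 ± 7.62 against 4.04 ± 0.825 CPM. The upstream regulators Mcidas and Ccno differed less, with log2 fold changes of 0.93 and 0.79. Dnah11 (0.54, adjusted p 0.0864) and Rfx3 (0.28, adjusted p 0.22) did not pass by edgeR. Without trachea 2 both were called higher in trachea (Dnah11 at 0.80, adjusted p 2.17e-04, and Rfx3 at 0.45, adjusted p 0.0232), and Dnah11 was also called with the replicate block (adjusted p 0.0336).

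Basal cells are the stem cells of the tracheal epithelium. Krt5 (chromosome 15, 101707070 to 101712898), their keratin, was at 152, 112, 132 and 141 CPM in tracheas and at 0.104, 0.179, 0.0347 and 0 CPM in lungs, and Trp63, the transcription factor p63, at 35.3 ± 6.95 against 0.506 ± 0.336 CPM. Krt17 (44 ± 2.99 against 0.205 ± 0.0341 CPM) and Krt15 (791 ± 22.7 against 35.2 ± 4.43 CPM) followed. The list was mixed, with 9 of 15 higher in trachea and 4 higher in lung (median 3.92): Itga6, an integrin of hemidesmosomes, was at 96.7 ± 4.98 against 283 ± 17.8 CPM, and Icam1, an adhesion molecule also found on type 1 cells, at 29.4 ± 2.33 against 135 ± 13.6 CPM. Ngfr, the low-affinity neurotrophin receptor, did not pass at 20.9 ± 4.46 against 16.6 ± 4.36 CPM.

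The promoters of 3 airway genes described above are shown with the same capitals, since the letters can be set beside those of the lung genes. They lie at chr11:49663345-49663594, plus strand, chr6:78468875-78469124, minus strand, and chr15:101712906-101713155, minus strand (GRCm38.p6, RefSeq).
Scgb3a1: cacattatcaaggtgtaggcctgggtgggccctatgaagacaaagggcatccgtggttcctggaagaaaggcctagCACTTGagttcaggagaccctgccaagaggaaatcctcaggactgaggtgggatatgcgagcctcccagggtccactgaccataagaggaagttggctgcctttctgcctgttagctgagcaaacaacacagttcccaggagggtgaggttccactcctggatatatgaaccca
Reg3g: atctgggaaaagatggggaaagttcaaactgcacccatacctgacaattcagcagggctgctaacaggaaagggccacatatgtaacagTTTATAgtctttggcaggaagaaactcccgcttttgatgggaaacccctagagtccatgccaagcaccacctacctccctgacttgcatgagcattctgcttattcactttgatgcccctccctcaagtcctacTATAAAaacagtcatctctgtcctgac
Krt5: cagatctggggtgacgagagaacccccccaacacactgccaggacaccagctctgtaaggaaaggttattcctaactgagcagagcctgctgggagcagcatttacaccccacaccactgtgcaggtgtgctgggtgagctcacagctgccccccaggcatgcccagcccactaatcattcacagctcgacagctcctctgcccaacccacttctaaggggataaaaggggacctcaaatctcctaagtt
Scgb3a1 had 1 CAAGTG match, Reg3g had 2 TATAAA matches, on opposite strands, and Krt5 had none of the 3 sets of letters. CAAGTG was held by 2 of 9 club cell promoters and 2 of 9 basal promoters (22.2% each) and 1 of 11 mucous promoters (9.09%). TGTTTAC was held by 0 of 9 club cell, 0 of 11 mucous and 1 of 9 basal promoters (11.1%), against 3.06% of all. TATAAA was held by 4 of 9 basal promoters (44.4%), 5 of 14 of type 2 genes (35.7%), 3 of 11 mucous promoters (27.3%) and 0 of 9 club cell promoters, against 13% of all.

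Transcription factors of the respiratory epithelium went both ways, with 10 of 22 higher in trachea and 11 higher in lung. Among the 10, Trp63 and Spdef were low in lung (0.506 ± 0.336 and 1.45 ± 0.299 CPM), and Sox9 is also a chondrocyte factor. Nkx2-1 (chromosome 12, 56531958 to 56536908), which specifies the respiratory endoderm, was at 73.8, 81.1, 92.2 and 84.7 CPM in tracheas and 234, 293, 336 and 367 CPM in lungs (log2 fold change -1.89, SE 0.134). Sox2, a factor of proximal airways, was at 60.8 ± 10.5 against 5.07 ± 0.719 CPM. Foxa1 was higher in trachea (171 ± 10.6 against 48.7 ± 4.11 CPM) while its relative Foxa2 was higher in lung (25.2 ± 1.34 against 35.4 ± 4.16 CPM). Ehf, an ETS factor of airway epithelium, was at 379 ± 28.1 against 10.7 ± 1.55 CPM. Etv5, a target of FGF signalling at the distal tips, was at 36 ± 3.01 against 200.1 ± 13.8 CPM, and Gata6, a factor of distal endoderm and vessels, at 20.2 ± 8.32 against 63.4 ± 9.73 CPM. Epcam, a general epithelial marker, was 2.87-fold higher in trachea (227 ± 20.8 against 79.3 ± 4.38 CPM), and 10 of 12 general epithelial genes went that way. Cdh1, E-cadherin, was at 376 ± 72.8 against 443 ± 19.6 CPM and did not pass (adjusted p 0.122, edgeR), though with the replicate number as a block it was called higher in lung (-0.25, adjusted p 0.0475), as it was without trachea 3 (-0.33, adjusted p 0.0186).

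**Figure D2:**
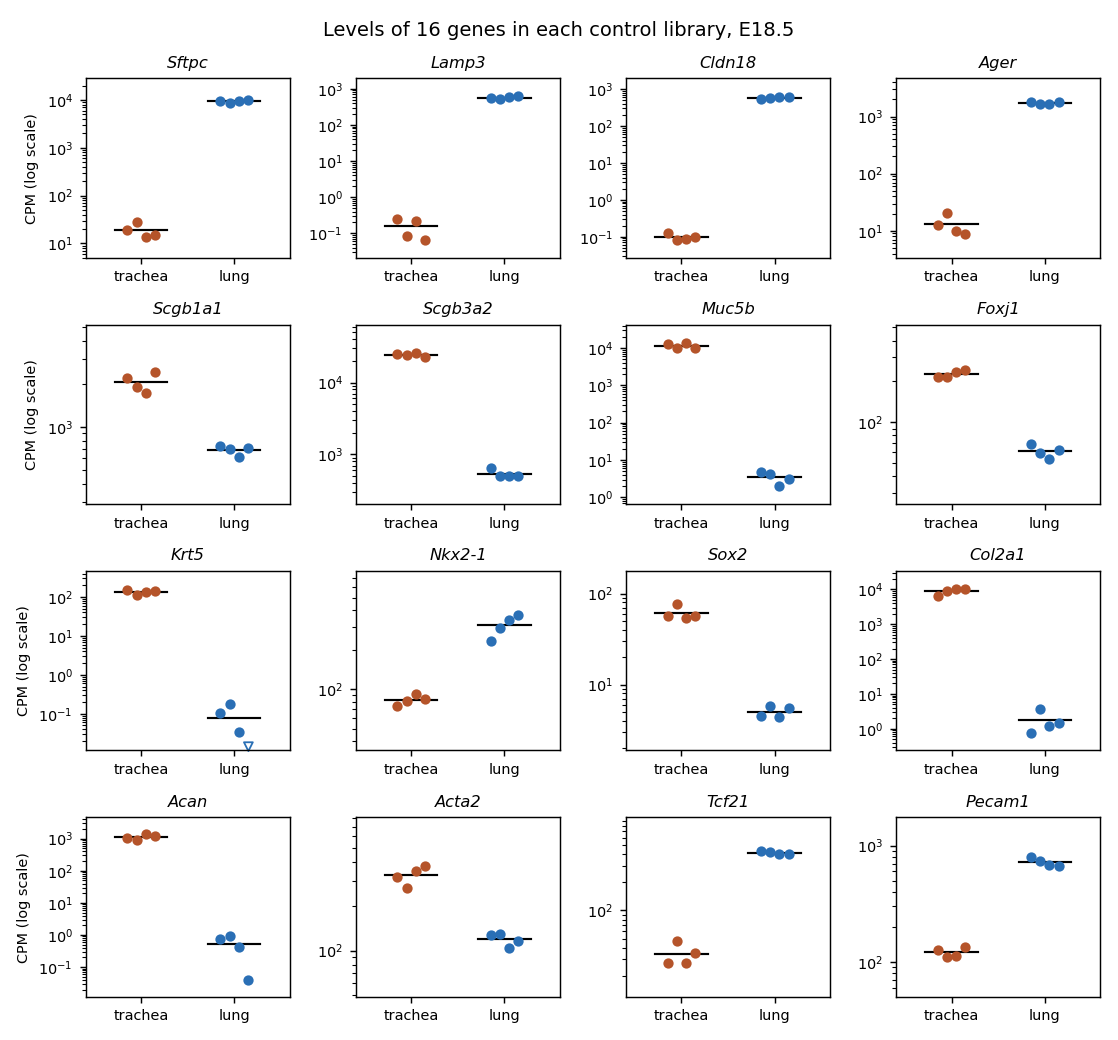
Each panel shows 1 gene, with a point for each of the 4 control tracheas (brown) and 4 control lungs (blue) in replicate order, the mean as a line and the level in CPM on a log axis; an open triangle at the foot marks a library with no count. In all 16 panels the tissues do not overlap: Cldn18 and Lamp3 are at less than 1 CPM in every trachea, and Krt5 and Acan at less than 1 CPM in every lung.

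Channels and water pores went both ways. Of 14 genes, 9 were higher in lung and 5 in trachea. The 3 subunits of the epithelial sodium channel, which clears lung liquid at birth, were all higher in lung: Scnn1a at 112 ± 6.09 against 361 ± 39 CPM, Scnn1b at 10.3 ± 4.97 against 65.9 ± 3.19 CPM and Scnn1g at 19.4 ± 8.66 against 166 ± 13.2 CPM. The chloride channels Cftr (3.28 ± 2.31 against 64.7 ± 19.3 CPM) and Ano1 (55 ± 11.8 against 211 ± 18.8 CPM) were higher in lung as well. The aquaporins divided: Aqp3, of basal cells, and Aqp4 were higher in trachea (89.9 ± 6.49 against 2.73 ± 0.277 CPM, and 101 ± 23.6 against 18 ± 2.9 CPM), and Aqp5, of type 1 cells, and Aqp1, of endothelium, were higher in lung (14 ± 4.45 against 170.1 ± 21 CPM, and 261 ± 34.5 against 856 ± 55 CPM). Claudins, which set the permeability of tight junctions, divided too, with 9 of 15 tested higher in trachea, among them Cldn8 (5.41) and Cldn10 (1.04), and 4 higher in lung, among them Cldn18 and the endothelial Cldn5 (-2.96).

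Cartilage matrix genes were nearly all higher in trachea. Of 22 listed matrix genes, 21 were tested, 20 were higher in trachea and 0 in lung, with a median of 8.26. Col2a1 (chromosome 15, 97975602 to 98004695) was at 9087 ± 1795 against 1.79 ± 1.35 CPM (log2 fold change 12.28, SE 0.55, adjusted p 1.54e-07). Acan (chromosome 7, 79053483 to 79115099), aggrecan, the large proteoglycan of cartilage, was at 1037, 919, 1349 and 1169 CPM in tracheas and at 0.731, 0.896, 0.416 and 0.04 CPM in lungs. The 3 collagen IX chains, which coat type II fibrils, were at 1771 ± 403 CPM (Col9a1), 1317 ± 199 CPM (Col9a2) and 1302 ± 218 CPM (Col9a3) in tracheas, and at 1.27 ± 0.204 CPM, 17.6 ± 3.79 CPM and 2.15 ± 0.401 CPM in lungs. Ucma, a small secreted protein of chondrocytes, was at 108 ± 18.9 CPM in tracheas and had 1 count in 1 lung. Matn4, a matrilin also made outside cartilage, was at 155 ± 17 against 139 ± 23.2 CPM and did not pass. Summed over the list, tracheas had 16470, 19240, 23940 and 23510 CPM and lungs 234, 279, 264 and 289.8 CPM, with no trachea near any lung.

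The regulators of chondrocytes differed less than the matrix they control. Sox9, the chondrocyte master factor, which is also a factor of distal lung epithelium, was at 99.3 ± 12.5 against 18.9 ± 3.91 CPM. Sox6 (1.10) and Runx3 (3.35) were higher in trachea, though Runx3 was not called with the replicate block (adjusted p 0.126 by edgeR) or without any 1 of 6 libraries, while Sox5 (0.30, adjusted p 0.138) and Fgfr3 (-0.04, adjusted p 0.743) did not pass by edgeR. Sox5 was called higher in trachea without trachea 2 (0.41, adjusted p 0.0218), without lung 1 (0.42, adjusted p 0.0449) and with upper quartile scaling (0.44, adjusted p 0.0309). In all, 11 of 15 were higher in trachea and 1 in lung. Genes of hypertrophic cartilage and bone were mostly low: of 12 listed, 5 passed the filter, and Col10a1, Ihh and Mmp13, which mark hypertrophic chondrocytes and bone formation, had counts but did not. Alpl, alkaline phosphatase, was higher in trachea (32.1 ± 10.7 against 11.8 ± 4.39 CPM), and Phex, an endopeptidase of phosphate balance, was higher in lung (5.75 ± 2.62 against 43 ± 3.78 CPM).

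Dense connective tissue genes were higher in trachea in 17 of 18 tested (of 20 listed; median 2.79). The fibrillar collagens Col1a1 and Col3a1 were at 9358 ± 1860 against 1145 ± 174 CPM and at 11440 ± 619.7 against 2534 ± 231 CPM. Lum and Dcn, leucine-rich proteoglycans that space collagen fibrils, were at 369 ± 16.6 against 4.56 ± 1.01 CPM and 483 ± 38 against 28.8 ± 3.41 CPM, and Tnmd, tenomodulin, at 5.34 ± 4.16 against 0.02 ± 0.04 CPM. The 1 listed gene higher in lung, Scx (scleraxis, 4.45 ± 1.57 against 8.16 ± 1.37 CPM), lies within Bop1 and strand was not used in counting, so its value is uncertain, and its call was lost in 8 of the other settings, with the replicate block among them (-0.91, adjusted p 0.0602 by edgeR). Small leucine-rich proteoglycans as a family had 14 of 15 higher in trachea and 0 in lung.

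Of 42 collagen genes tested, 28 were higher in trachea and 12 in lung, the latter with several chains of collagen IV. Col4a3 and Col4a4, which form the network of the alveolar and glomerular basement membrane, were at 1.78 ± 1.71 against 283 ± 47.9 CPM and 4.74 ± 1.67 against 435 ± 72.1 CPM. The general chains Col4a1 (1564 ± 143 against 5327 ± 422 CPM) and Col4a2 (894 ± 91.6 against 2954 ± 296 CPM) were higher in lung by 3.41-fold and 3.3-fold. Laminins, the other basement membrane proteins, had 8 of 11 higher in lung and 2 in trachea. Lama3 (-3.98) and Lamb3 (-1.79), chains of the anchoring laminin of epithelium, were among those higher in lung. Integrin chains had 14 of 25 higher in lung, with Itgb6, an activator of TGF-beta, at 4.51 ± 1.03 against 74.5 ± 4.79 CPM, and 6 higher in trachea, with Itga10, a collagen receptor of chondrocytes, at 75 ± 15.3 against 6.21 ± 1.36 CPM.

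Elastic fibre genes were higher in trachea in 14 of 16 cases, but by little (median 0.75). Eln, elastin, was high in both tissues, at 12220 ± 1297 against 8521 ± 981 CPM, a 1.43-fold difference. Mfap5 (131 ± 9.31 against 6.51 ± 1.39 CPM) differed far more, and Mfap4 went the other way (1215 ± 88.2 against 2578 ± 221 CPM).

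Genes of lung wall fibroblasts were mostly higher in lung. Of 20 genes of alveolar fibroblasts and myofibroblasts, 16 were higher in lung and 2 in trachea (median -1.56). Tcf21, a transcription factor of lung mesenchyme, was at 27.6, 46.7, 27.5 and 35 CPM in tracheas and 428, 419, 399 and 399 CPM in lungs. Wnt2, a mesenchymal signal to the distal epithelium, was at 3.16 ± 0.748 against 74.2 ± 9.6 CPM, and Npnt, a basement membrane ligand, at 82.7 ± 11.7 against 1024 ± 44.6 CPM. Inmt, a methyltransferase of small amines, was at 39.5 ± 6.39 CPM in lungs and was counted in 1 of 4 tracheas. Pdgfra, a receptor on fibroblasts of both tissues, was at 272 ± 24 against 281 ± 46.8 CPM and did not pass, and Gpc3, a glypican, was higher in trachea (745 ± 52.4 against 229.5 ± 13.9 CPM).

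Transcription factors that pattern mesenchyme differed widely. Of 42 listed, 34 passed the filter, 23 were higher in trachea and 10 in lung, and the median was 3.48. On the tracheal side, Osr2 was at 171 ± 5.19 against 1.08 ± 0.457 CPM, Twist1 at 29.5 ± 5.21 against 0.362 ± 0.223 CPM, Barx1 at 14.9 ± 3.11 against 0.12 ± 0.0985 CPM and Prrx1 at 135 ± 7.87 against 14.6 ± 2.2 CPM. Nkx3-2, a chondrocyte factor, was at 1.6 ± 0.846 CPM in tracheas with no count in lungs, at least 62-fold higher. Pax9 (9.04 ± 1.92 against 0.0324 ± 0.0425 CPM) and Pax1 (5.42 ± 1.72 against 0.0149 ± 0.0299 CPM) are also factors of the pharynx and of vertebral cartilage. On the lung side were the T-box genes Tbx2 (93.3 ± 10.5 against 612 ± 59.6 CPM), Tbx3 (45.9 ± 3.2 against 183 ± 9.2 CPM), Tbx4 (70.2 ± 9.14 against 270 ± 25.2 CPM) and Tbx5 (52.1 ± 11.4 against 171 ± 17.6 CPM), with Foxf1 (36.5 ± 5.17 against 180.2 ± 20.6 CPM), a target of hedgehog signalling. Tbx4, for which the rtTA driver is named, was 3.85-fold higher in lung. The labels do not say whether the driver alters an allele of Tbx4, which would bear on its level in all 8 libraries.

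Hox genes, which mark position along the body axis, divided by paralogue number in the Hoxa and Hoxb clusters. Of the 39 Hox genes in the files 17 were tested. Of the 8 with numbers 1 to 4, 5 were higher in trachea and 0 in lung, and of the 9 with numbers 5 to 9, 7 were higher in lung and 2 in trachea. Hoxb3 and Hoxb4 did not pass, and Hoxb3 was called higher in trachea without trachea 2 (0.65, adjusted p 0.00162 by edgeR). In trachea Hoxa3 was at 39.9, 30.2, 39.2 and 47.4 CPM against 21.4, 19.9, 23.2 and 19.9 CPM in lung (log2 fold change 0.90), and Hoxa2 and Hoxb2 had 0.79 and 1.07. Hoxa5, needed for formation of the trachea and lung, was at 33.8, 46.2, 33.4 and 32.2 CPM in tracheas and 49, 60.5, 64.9 and 55.2 CPM in lungs (-0.66), and Hoxb5 at 4.64 ± 1.03 against 17.5 ± 2.81 CPM (-1.93). Hoxa6, Hoxb6, Hoxb7 and Hoxb8 were lower still in trachea, with -3.19, -3.26, -3.86 and -4.09. Hoxd8 (3.21 ± 2.34 against 1 ± 0.254 CPM) and Hoxd9 (2.65 ± 1.33 against 0.366 ± 0.136 CPM) were the 2 exceptions, both low and higher in trachea, and Hoxd8 lost its call with the replicate block (1.40, adjusted p 0.147 by edgeR) and without any 1 of 6 libraries. Genes within a cluster lie next to one another, and reads that overlap 2 genes were not counted.

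**Figure D3:**
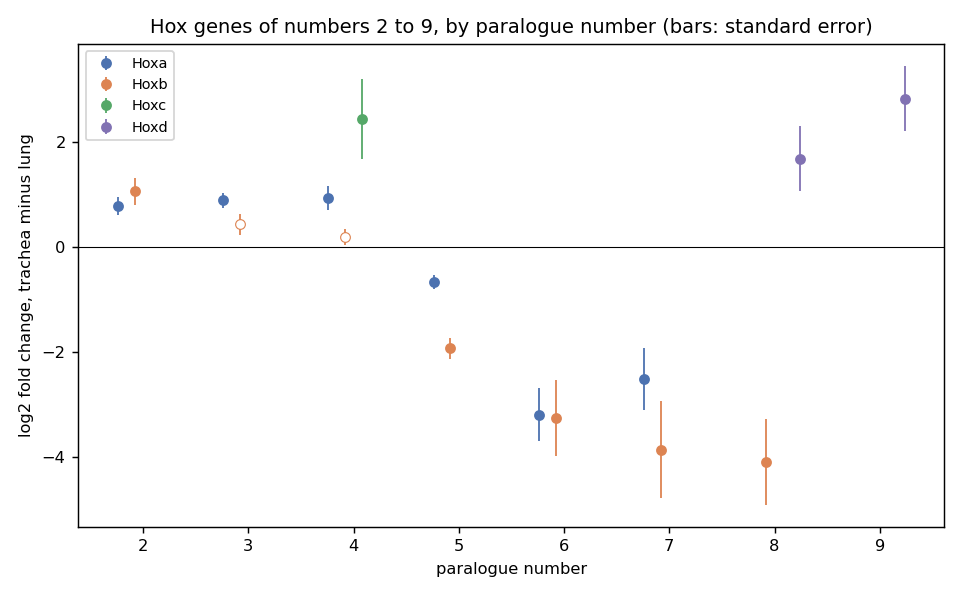
Each point is 1 of 16 Hox genes tested, placed by its paralogue number (2 to 9) and its log2 fold change, trachea minus lung, with the standard error as a bar; colours mark the 4 clusters and open points are genes that did not pass. In the Hoxa and Hoxb clusters, numbers 2 to 4 lie above 0 and numbers 5 to 8 below it, while Hoxd8 and Hoxd9 lie above.

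Smooth muscle was divided within its own list. Of 24 contractile genes, 13 were higher in trachea and 8 in lung, with a median of 1.12. Summed levels went the other way, at 3002 ± 218 CPM in trachea and 4102 ± 108 CPM in lung, with abundant members such as Fhl1 (329 ± 40.5 against 1224 ± 41.1 CPM), Mylk, myosin light chain kinase (219.9 ± 27 against 765 ± 60.6 CPM), and Csrp1 (288 ± 17.1 against 634 ± 8.24 CPM) higher in lung. These 3 are also expressed outside smooth muscle. Ppp1r14a, an inhibitor of myosin phosphatase, was higher in lung as well (12.5 ± 0.697 against 57.7 ± 7.84 CPM), as was Smtn, smoothelin (99.3 ± 9.84 against 123 ± 12.4 CPM), whose call was lost without trachea 1 (-0.25, adjusted p 0.111 by edgeR), without trachea 2 (-0.21, adjusted p 0.0805) and in further settings. Genes of the contractile filaments were among those higher in trachea. Acta2, smooth muscle actin (chromosome 19, 34241090 to 34255336), was at 319, 268, 349.6 and 378 CPM in tracheas and 128, 130.1, 103 and 116 CPM in lungs (log2 fold change 1.46, SE 0.115, adjusted p 1.10e-06). Myh11, smooth muscle myosin heavy chain, was at 273 ± 72.7 against 106 ± 6.77 CPM, Cnn1, calponin, at 66.4 ± 9.78 against 5.02 ± 1.08 CPM, Actg2 at 82.3 ± 12.3 against 18 ± 2.67 CPM and Des, desmin, at 162 ± 85.2 against 52.2 ± 3.36 CPM. Des and Tpm2 also belong to skeletal and cardiac muscle, whose genes varied between the tracheas, and the part of those muscles in the levels was not tested.

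Myocd itself was not higher in trachea, as Acta2, Myh11 and Cnn1 were. It was at 5.17, 0.923, 7.99 and 4.96 CPM in tracheas and 12.2, 6.03, 10.6 and 8.72 CPM in lungs, with overlap, and was not called (log2 fold change -0.96, SE 0.472, adjusted p 0.114). With the replicate number as a block it was called higher in lung (-1.19, adjusted p 0.0254 by edgeR). All these embryos carry 1 floxed Myocd allele, cardiac muscle also expresses Myocd, and the exons that Cre removes are not named in the labels.

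Receptors that act on airway muscle tone did not go 1 way: 7 of 17 were higher in trachea and 8 in lung. The muscarinic receptors Chrm2 and Chrm3, which carry cholinergic contraction, were higher in trachea (32.4 ± 3.8 against 11.7 ± 1.81 CPM, and 5.58 ± 1.43 against 2.27 ± 0.704 CPM), as was Tacr1, the receptor of substance P, at 108 ± 16.5 against 1.56 ± 0.447 CPM. Ednrb, an endothelin receptor also found on capillaries and glia, was higher in lung (42.3 ± 5.56 against 139.5 ± 20.9 CPM). Vascular smooth muscle and pericyte genes were mostly higher in lung (12 of 17, with 4 higher in trachea). The soluble guanylate cyclase subunits Gucy1a1 and Gucy1b1, which sense nitric oxide, were at 18.4 ± 2.09 against 464 ± 32.2 CPM and 12.7 ± 2.35 against 212 ± 12 CPM.

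Every listed endothelial gene was higher in lung. All 17 were higher in lung, with a median of -2.65. Pecam1 (chromosome 11, 106654217 to 106750628) was at 128, 110.4, 111 and 134 CPM in tracheas and 792, 745, 680 and 669.8 CPM in lungs (log2 fold change -2.58, SE 0.0929, adjusted p 2.92e-09), and Kdr, the main VEGF receptor, at 81.8 ± 3.43 against 568 ± 64.8 CPM. Car4, carbonic anhydrase 4 of lung capillaries, and Calcrl, the adrenomedullin receptor, had the larger gaps, at 0.597 ± 0.593 against 38.1 ± 4.47 CPM and 14.8 ± 4.45 against 439.6 ± 52.7 CPM. Lymphatic genes were mixed: Prox1, the lymphatic master factor, was higher in trachea (17.5 ± 3.94 against 7.8 ± 2.94 CPM) and Lyve1 higher in lung (107 ± 6.91 against 293 ± 32.7 CPM). Red cell genes were higher in lung too, and 9 of 10 were higher in lung. Hbb-bs, an adult beta globin, was at 300.5 ± 73.6 against 3192 ± 448 CPM, and Klf1, an erythroid factor, did not pass (0.985 ± 1 against 0.756 ± 0.379 CPM). The globin genes have near-identical copies, so the split of reads among them is uncertain.

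Macrophage genes showed smaller differences, with 6 of 15 higher in trachea and 2 higher in lung. Csf1r, the growth factor receptor of macrophages, was at 56.4 ± 8.68 against 63.2 ± 3.46 CPM and did not pass, while C1qb was higher in trachea (31.8 ± 9.98 against 17.3 ± 1.68 CPM). Marco, a scavenger receptor of alveolar macrophages, had no count in tracheas and 1.34 ± 0.541 CPM in lungs, at least 39.8-fold higher. Of 18 genes of other leukocytes 12 were tested, 3 were higher in trachea and 7 in lung, and genes of 1 cell type did not all go 1 way. Neutrophil genes S100a8 (0.87 ± 1.01 against 10.8 ± 2.67 CPM) and S100a9 (1.08 ± 0.202 against 20.2 ± 7.3 CPM) were higher in lung, but Cd177, also a neutrophil gene, was higher in trachea (104 ± 14.2 against 6.22 ± 1.57 CPM). Cpa3, of mast cells, was higher in trachea (14 ± 1.88 against 4.22 ± 0.704 CPM), but Kit, a receptor of mast cells and other cell types, was higher in lung (12.7 ± 2.18 against 191 ± 16.1 CPM). Mesothelium, the outer lining of the lung, had 7 of 12 genes higher in lung, with Upk3b at 0.776 ± 0.862 against 111 ± 9.45 CPM and Msln at 209.8 ± 16.9 against 801 ± 122 CPM. Muc16, another of its genes and also a mucin of airway epithelium, was higher in trachea (668 ± 161 against 18.8 ± 4.07 CPM).

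**Figure D4:**
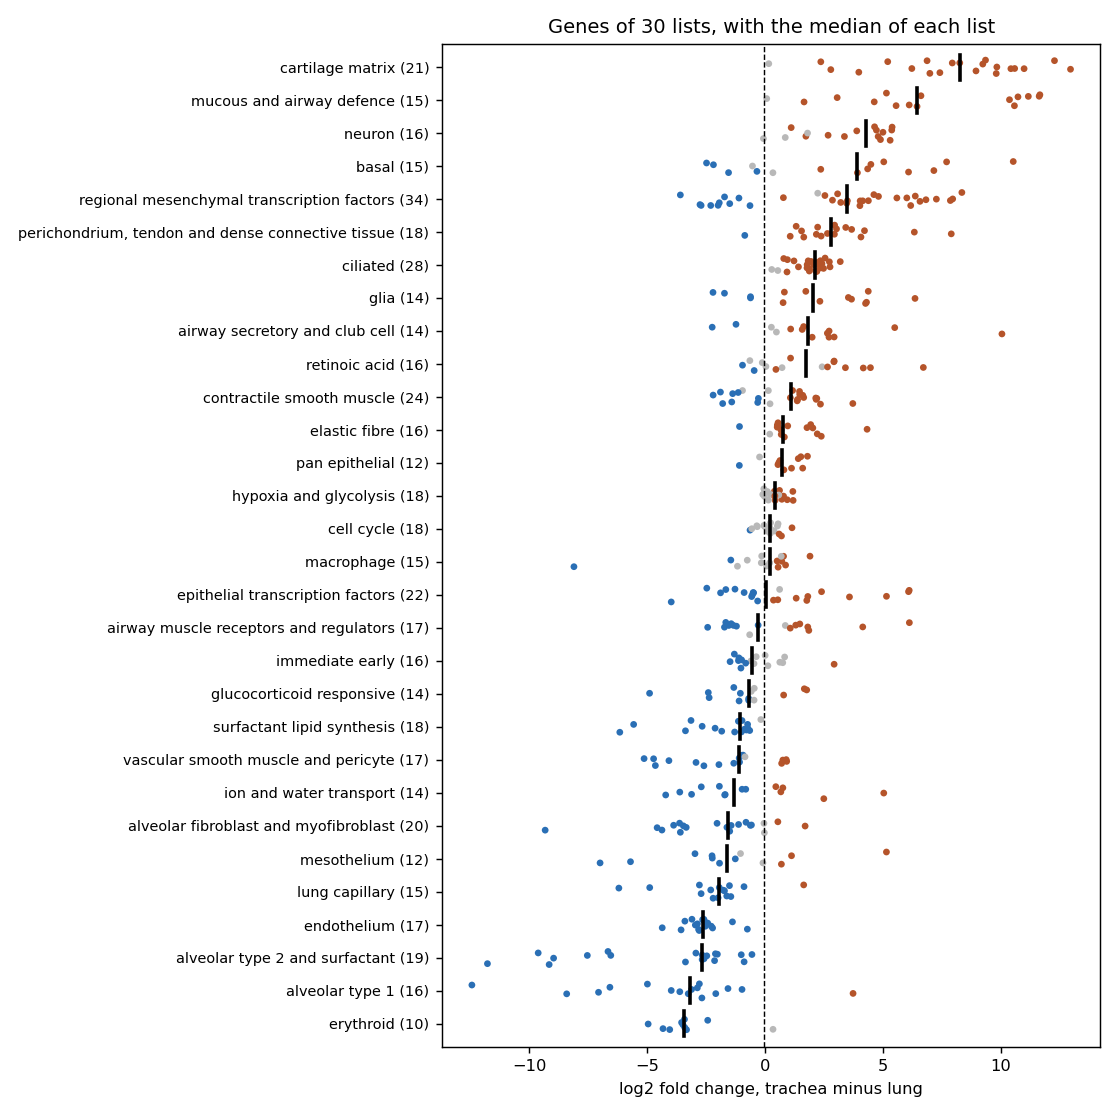
Each row is 1 of 30 gene lists with the number of genes tested, each point is a gene at its log2 fold change, trachea minus lung, and the black bar is the list's median; brown and blue genes passed the test, grey genes did not, and the dashed line is the median of all genes (-0.05). Of the lists drawn, cartilage matrix has the highest median, 8.26, and erythroid genes the lowest, -3.45.

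Most tested genes of neurons and of glia were higher in trachea, and where in the tissue these cells lay was not tested. Of 18 neuronal genes, 16 were tested, 13 were higher in trachea and 0 in lung (median 4.27). Prph, peripherin, was at 14.4, 70.2, 17.2 and 18.7 CPM in tracheas and 0.696, 1.34, 0.971 and 0.96 CPM in lungs. It was far higher in trachea 2 than in the other tracheas, and so was the summed level of the list, at 79, 352, 96.3 and 108 CPM against 38.6, 39.9, 31.6 and 31 CPM in lungs. Without trachea 2 the count was again 13, and the median 3.46. S100b and Sox10, of glia, were at 43.4 ± 0.756 against 0.531 ± 0.178 CPM and 11.2 ± 2.33 against 0.538 ± 0.177 CPM. The glial list had 10 of 14 higher in trachea, but its sum was lower there (608 ± 10.9 CPM, against 805 ± 35.5 CPM), with Pmp22 (214 ± 8.08 against 329 ± 14.7 CPM) and Erbb3 (105 ± 10 against 162 ± 16.6 CPM), which other cells also express, higher in lung. Of 12 neuroendocrine genes 9 were tested, 4 were higher in trachea and 1 in lung (median 0.46). Calca, the gene of calcitonin gene-related peptide, was low, at 1.68 ± 1.24 against 2.1 ± 0.883 CPM, and did not pass. It was called higher in lung without tracheas 1 and 2 (-1.49, adjusted p 0.036 by edgeR). Chga, chromogranin A, also low, was higher in trachea (1.57 ± 0.0858 against 0.12 ± 0.13 CPM).

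Signals that shape the airway differed in both directions. Of 37 branching genes, 18 were higher in lung and 10 in trachea. Fgf10, the mesenchymal signal for bud outgrowth, and its receptor Fgfr2 were higher in lung (35 ± 2.79 against 76.4 ± 7.2 CPM, and 162 ± 5.93 against 338 ± 27.7 CPM), with the targets Spry4 (-2.14) and Dusp6 (-1.28). Shh, the epithelial hedgehog ligand, its receptor and target Ptch1, and Hhip were higher in lung (-1.12, -1.21 and -1.62), while Gli1, another target, was higher in trachea (102 ± 8.63 against 26.7 ± 3.42 CPM). Lgr5, an R-spondin receptor, was at 61.8 ± 9.02 against 1.68 ± 0.596 CPM, and Chrd, a BMP antagonist, at 43.4 ± 5.07 against 5.41 ± 0.955 CPM. Of 14 Wnt ligands tested, 9 were higher in trachea, among them Wnt4 (29.6 ± 3.88 against 5.93 ± 1.5 CPM), Wnt5b and Wnt11, and 3 in lung: Wnt2, Wnt3a (0.336 ± 0.291 against 21.4 ± 2.35 CPM) and Wnt7a (0.103 ± 0.205 against 16.7 ± 2 CPM). Axin2, a general readout of WNT signalling, was higher in lung (22.3 ± 6.2 against 80 ± 8.24 CPM). Retinoic acid genes had 9 of 16 higher in trachea: Aldh1a1, Aldh1a3 and Rdh10, which make it, Crabp1, which binds it, and Cyp26a1, which breaks it down (8.72 ± 2.91 against 0.0782 ± 0.0913 CPM). Aldh1a2, the mesenchymal synthase, was higher in lung (16 ± 4.65 against 30.9 ± 1.72 CPM).

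Genes of cell state were counted in the same way. Hypoxia and glycolysis had 10 of 18 genes higher in trachea and 0 in lung, with a median of 0.41, and Ldha, lactate dehydrogenase, was at 659 ± 38.1 against 403 ± 47.9 CPM. Of 18 cell cycle genes 3 were higher in trachea and 1 in lung, Mki67, at 122 ± 24 against 190.3 ± 31.2 CPM. The tracheal count was 6 without trachea 2, 11 without lung 2 and 5 with the replicate block. The glucocorticoid list had 8 of 14 genes higher in lung and 3 in trachea (median -0.70). Those higher in lung included the receptor Nr3c1 (89.5 ± 14.3 against 225 ± 21.8 CPM) and Hsd11b1, which makes the active hormone (5.78 ± 3.15 against 176 ± 8.13 CPM). Mitochondrially encoded genes took 1.77% ± 0.217 of counts in trachea and 0.912% ± 0.098 in lung (SD, n = 4), a difference that reached the smallest p that an exact two-sided permutation test allows for 4 against 4, 0.0286, or 0.0429 adjusted over 3 measures. The 100 most counted genes took 25.5% ± 1.12 and 16.2% ± 0.269, with the same exact permutation p. Of the 13 mitochondrial messengers 6 had no count in any of the 8 libraries, and the other 7 were all higher in trachea.

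Genes of skeletal muscle, cardiac muscle and thyroid varied widely among the tracheas. Skeletal muscle genes summed to 4016, 374, 74.5 and 1401 CPM in tracheas and 103, 38.4, 75.6 and 45.8 CPM in lungs, and trachea 3 overlapped the lungs. Of 20 genes 14 passed the filter, 11 were called higher in trachea and 0 in lung, and the call count was 7 without trachea 1, 3 without lung 2, 3 or 4, 14 without trachea 3 and 6 with the replicate block. Acta1, skeletal actin, was at 1254, 38.7, 7.95 and 475 CPM in tracheas and 8.63, 1.17, 2.46 and 0.56 CPM in lungs, and its call was lost without lung 2, 3 or 4. Cardiac genes, which the pulmonary veins and atria express, summed to 483, 3183, 476 and 445 CPM in tracheas and 931, 535, 763 and 626 CPM in lungs. Their median log2 fold change was 1.04 with all libraries and -0.96 without trachea 2, where 7 of 16 were higher in lung instead of 1. With the replicate block 0 were higher in trachea and 1 in lung. Myh6, the atrial myosin, was at 12.2, 646, 65.4 and 25.2 CPM in tracheas and 301, 151, 215 and 175 CPM in lungs, and it was called higher in lung only without trachea 2 (-2.56, adjusted p 0.0207 by edgeR) or without tracheas 1 and 2. Thyroid genes summed to 634, 123, 22.1 and 17.7 CPM in tracheas, and Tg, thyroglobulin, was at 618, 113, 11.9 and 3.71 CPM there and at 2.23, 1.46, 1.73 and 1.48 CPM in lungs. Tg was called higher in trachea, but not with the replicate block (adjusted p 0.0667 by edgeR) or without any 1 lung. Pth and Gcm2, which define the parathyroid, had no count in any library. Of 17 genes of the oesophagus and other stratified epithelia, 7 passed the filter and 5 were higher in trachea, with Krt4 at 44.4, 32, 35.7 and 28.6 CPM in tracheas and 0.453, 0.299, 0.208 and 0.4 CPM in lungs. Adipose genes had 4 of 6 tested higher in trachea and 1 in lung, a tracheal count that was 1 to 3 when any 1 library was left out and 1 with the replicate block. Thymus genes had 1 of 3 tested higher in lung. Neither the source of these reads nor the part of these tissues in other results was tested.

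**Figure D5:**
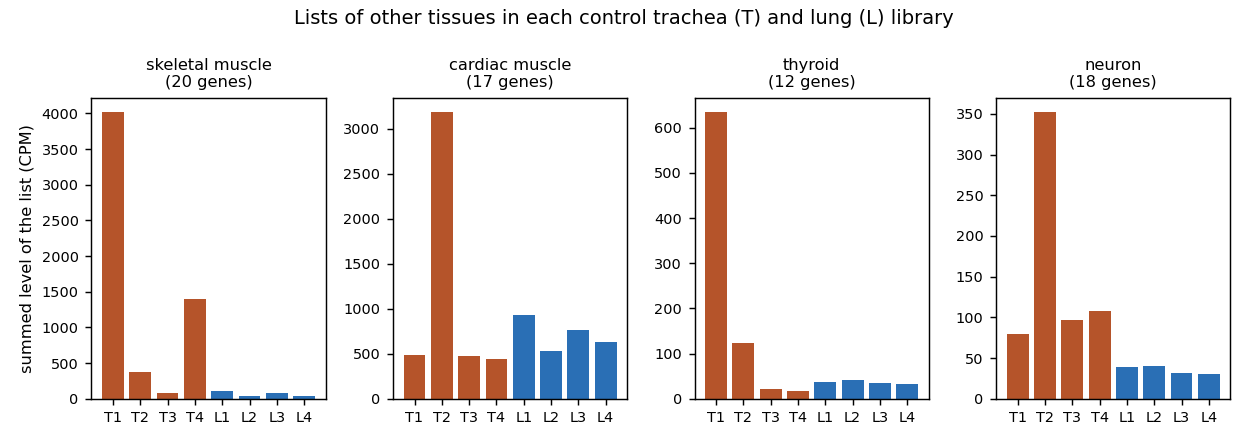
Bars give the summed level (CPM) of 4 lists in each control trachea (T1 to T4, brown) and lung (L1 to L4, blue). Trachea 1 is highest for skeletal muscle (4016 CPM) and thyroid (634 CPM), and trachea 2 for cardiac muscle (3183 CPM) and neuron genes (352 CPM).

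Genes outside the lists were among the largest differences. On the tracheal side, Gp2 (chromosome 7, 119442537 to 119459285), a glycoprotein of secretory granules and of cells that take up microbes, was at 414, 278, 312 and 343 CPM in tracheas and 0.0696, 0.0299, 0 and 0 CPM in lungs (log2 fold change 13.42, SE 0.291, adjusted p 1.52e-10). Serpinb11, a serine protease inhibitor relative, was at 82.2 ± 7.65 against 0.0174 ± 0.0201 CPM, Prss32, a serine protease, at 49.3 ± 6.7 against 0.0149 ± 0.0299 CPM, and Sim2, a transcription factor of the bHLH-PAS family, at 65.4 ± 10.7 against 0.0248 ± 0.0329 CPM. C1qtnf3, a secreted protein of the C1q and TNF family, was at 271 ± 28.4 against 0.227 ± 0.234 CPM. On the lung side, Gif, gastric intrinsic factor, and Ros1, a receptor tyrosine kinase, had no count in any trachea and were at 22.2, 21.2, 22.3 and 25.9 CPM and 21.6, 15.3, 24 and 23.4 CPM in lungs, at least 679-fold and 624-fold higher. Glp1r, the receptor of glucagon-like peptide 1, was at 0.0185 ± 0.0216 against 23 ± 2.26 CPM, and Tinag, a basement membrane antigen first known from kidney tubules, at 0.00827 ± 0.0165 against 39.7 ± 6.62 CPM. Scn7a, a sodium channel relative, was at 6.83 ± 1.02 against 1322 ± 232 CPM, C7, complement C7, at 0.123 ± 0.245 against 45.8 ± 9.42 CPM and Lyz1, a lysozyme, at 13.6 ± 2.12 against 2323 ± 412 CPM. Lyz1 has a near copy in Lyz2, so reads shared by both were not counted.

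The same contrast in the mutant libraries, 6 tracheas and 6 lungs with 2 floxed Myocd alleles and the same transgenes, used none of the control samples. There 17564 genes were tested, 31.2% were higher in trachea and 29.2% higher in lung. Of the 4337 genes higher in control trachea, 89.9% were called the same way in mutants and 0 the opposite way. Of the 4869 higher in control lung, 86.9% were called the same way and 1 the opposite way. Those shared calls were 71% of the mutant trachea calls and 82.4% of the mutant lung calls.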

How the data were processed

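Polyadenylated RNA of the 8 control libraries was made into unstranded TruSeq libraries and read as single reads of 75 bases, per the labels' protocols. The deposited values are read counts per gene from featureCounts 1.6.2 with GENCODE vM17 genes, per the file headers, after alignment with STAR to GRCm38, per the submitters' processing notes. Reads on several genes or places were not counted and strand was ignored, so paralogs, overlapping and antisense genes are uncertain. The length column, a deposited value that gives the exon length of a gene in bases, gave RPKM. The lung and trachea tables were joined by gene ID, and 53620 of 53715 IDs had a symbol.

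Genes were filtered with filterByExpr and tested with edgeR 4.0.16 in R 4.3.3 (TMM, quasi-likelihood, Benjamini-Hochberg, threshold 0.05). CPM use TMM-scaled library sizes. The design text names DESeq2, run here as an alternative (1.42.0), and the code was tested on simulated data. Other alternatives were other scalings, filters, a minimum fold, all 20 libraries in 1 fit, a replicate block and leaving out each library. Leaving out tracheas 1 and 2 together was chosen after seeing the data.

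Libraries with the same replicate number may be from 1 embryo, which the labels do not state. Their deviations from the tissue means correlated at 0.192, 0.113, 0.165 and 0.126 over 11503 genes (other pairs -0.156 to 0.078). The main test used no pairs, and the numbers were taken as pairs only in the replicate block, an alternative setting. Nothing says that samples of a tissue came from separate litters, so p-values measure the spread between these samples. The folds given as at least a value rest on a floor of 3 counts, which covers counting error only.

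The comparison and the gene lists were chosen with earlier results of these data known. Genes were named by a rule: the 15 with the largest fold change in each direction among those called at 20 CPM or more without overlap, the 10 highest RPKM in each tissue, the first 2 members of each list with up to 4 more that were called with the largest change, Myocd, and the 5 with the widest spread in each tissue. Of 219 genes in the text 138 came from the rule. The other 81 were chosen after their values were seen: Abca3, Aldh1a3, Ano1, Axin2, Bop1, Ccno, Chga, Cldn10, Cldn5, Clic5, Col1a1, Col3a1, Col4a1, Col4a2, Col4a3, Col4a4, Col9a2, Cpa3, Csrp1, Cyp4b1, Des, Dnah11, Dusp6, Erbb3, Etv5, Fgfr3, Fhl1, Fmo2, Foxa1, Foxf1, Gata6, Gli1, Gpc3, Hhip, Hoxa2, Hoxa3, Hoxa5, Hoxa6, Hoxb3, Hoxb4, Hoxb6, Hoxb7, Hoxb8, Hoxd8, Hoxd9, Icam1, Igfbp2, Il33, Itga6, Kdr, Klf1, Krt15, Lcn2, Ldha, Lyz2, Marco, Matn4, Mcidas, Mylk, Ngfr, Nkx3-2, Nr3c1, Pdgfra, Pmp22, Prrx1, Ptch1, Rdh10, Rfx3, Rsph4a, Runx3, Sftpd, Shh, Slc34a2, Smtn, Sox2, Sox6, Spry4, Tpm2, Twist1, Wnt11 and Wnt4. Results of some genes are not reported here.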

Additional observations from a re-analysis of the deposited data

Results flagged for a closer look

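A library counted as far from the other 3 of its tissue when its gap to the nearest, as a share of the range, passed Dixon's 95% critical value. Of 456 sets of 4 values, 34 (7.46%) held such a library, and chance gives about 1 in 20 for values with a normal spread. A set with no count in 3 libraries and any count in the other is flagged by construction. The 1 in 20 does not apply to such sets, which are those given below as against 0, so the 2 shares cannot be compared. Trachea 1 was highest for Foxa2 at 27.2 CPM against 24.4 to 24.8, Sox6 at 35.7 CPM against 26.8 to 27.8, Wnt7a at 0.411 CPM against 0 and share of counts from ribosomal RNA repeat genes at 3.62% against 1.14 to 1.35. Trachea 1 was lowest for Pax1 at 2.83 CPM against 6.13 to 6.38. Trachea 2 was highest for Ccno at 31.6 CPM against 24.1 to 24.9, Hoxa5 at 46.2 CPM against 32.2 to 33.8, Myh6 at 646 CPM against 12.2 to 65.4 and Prph at 70.2 CPM against 14.4 to 18.7. Trachea 2 was also highest for Sftpd at 154 CPM against 94.9 to 99.2, Sox2 at 76.3 CPM against 53.4 to 57.2, summed level, cardiac muscle at 3183 CPM against 445 to 483 and summed level, neuron at 352 CPM against 79 to 108. Trachea 2 was lowest for Dnah11 at 12.4 CPM against 27 to 28.6, Lgr5 at 48.3 CPM against 64.8 to 67.5 and Rfx3 at 25.8 CPM against 36.5 to 38.1. Trachea 3 was highest for C7 at 0.491 CPM against 0 and Inmt at 0.223 CPM against 0. Trachea 3 was lowest for Lamb3 at 51.8 CPM against 63.5 to 65. Trachea 4 was highest for Tinag at 0.0331 CPM against 0. Lung 1 was highest for Scgb3a2 at 648 CPM against 497 to 506 and Scnn1b at 70.6 CPM against 63.7 to 64.8. Lung 1 was lowest for Ppp1r14a at 46 CPM against 61.1 to 62.5. Lung 2 was highest for Aqp5 at 202 CPM against 159 to 161, Pax1 at 0.0597 CPM against 0, Prss32 at 0.0597 CPM against 0 and Ucma at 0.0299 CPM against 0. Lung 2 was lowest for Erbb3 at 137 CPM against 169 to 170.3. Lung 3 was highest for Hoxb6 at 5.17 CPM against 4.44 to 4.53 and Klf1 at 1.32 CPM against 0.508 to 0.64. Lung 4 was highest for Tnmd at 0.08001 CPM against 0. Lung 4 was lowest for Cpa3 at 3.16 CPM against 4.54 to 4.6, Mki67 at 144 CPM against 199 to 209.6 and genes detected in a library at 22666 genes against 23910 to 23982.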

How the results depend on the processing

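With a minimum fold of 2 (glmTreat), 1858 genes were higher in trachea and 1353 in lung, where a null fold other than 1 is set by construction. Under the other alternatives, and without tracheas 1 and 2, both counts were within 1.5 times of the reported ones. When any 1 library was left out they ranged from 3926 to 5539 in trachea and from 4181 to 5297 in lung, with the highest without trachea replicate 2. With the replicate block, 4059 genes were higher in trachea and 4909 in lung, of which 3990 and 4697 were called without it. Apart from the genes and lists given with a block value beside them, the replicate block changed no other call of a gene named here. Of 219 named genes, 175 kept their direction and call in every setting in which they were tested and 0 turned direction. The median log2 fold change of ribosomal protein genes was -0.07 and 0.07 with upper quartile scaling, and those of several lists near 0 also turned sign. When any 1 library was left out, the difference in the share of counts from mitochondrially encoded genes ranged from 0.775 to 0.921 percentage points and that in the share of counts in the 100 most counted genes from 8.81 to 9.66, each with an exact permutation p of 0.0571, the smallest that 3 against 4 allows. For genes detected in a library the difference, trachea minus lung, was -1630 (exact permutation p 0.514), and it ranged from -2840 to 190.9, the latter without trachea replicate 2, the shallowest library.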

Other observations

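Among genes outside every group above, H19, an imprinted long non-coding RNA of growing tissues, was at 7539, 6822, 7014 and 7706 CPM in tracheas and 989, 1184, 1082 and 1144 CPM in lungs. By annotated type, 3986 of 14980 protein-coding genes tested were higher in trachea and 4584 in lung, while of 561 lincRNA genes 103 were higher in trachea and 79 in lung. Antisense genes gave 92 and 59 of 604, but counting ignored strand, so their reads cannot be told apart from those of the genes they overlap. Adamdec1, a metalloprotease relative, differed among lungs of 1 group, at 5.47, 5.47, 53.7 and 52.2 CPM.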
